A study of Homo sapiens with 6 samples.

Results

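Integrins are receptors for the extracellular matrix, each made of 1 alpha and 1 beta subunit, and focal adhesions are the plaques of adaptor proteins that join their tails to actin. The genes described here are the 41 protein-coding genes that encode the integrin alpha subunits (17 genes, by symbols beginning ITGA), the integrin beta subunits ITGB1 to ITGB8 (8 genes) and a named set of 16 adhesion adaptors, out of 62703 genes counted. Of the 41, 31 had enough reads to be tested, among 15797 genes tested in all. The rule goes by symbol and uses no expression value, and it was written with earlier results of these data known.

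Bulk RNA sequencing was done on MDA-MB-231 cells, an established human line of triple-negative, mesenchymal-like breast cancer. The 3 libraries named shControl carried a control hairpin and the 3 named shRNF20 carried hairpin RNA against RNF20, the ubiquitin ligase that, with RNF40, monoubiquitinates histone H2B over transcribed genes. The series asked what RNF20 does in immunosuppression through CDK9 and LSD1. No treatment or time point is given for either group. The labels also leave out how many hairpins were used, whether the cells were pools or clones, and whether replicates were separate cultures, so the p-values cover just the spread among these 6 libraries, and that spread could be technical.

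The alpha subunit largely decides what an integrin binds: ITGA1, ITGA2, ITGA10 and ITGA11 bind collagens, ITGA3, ITGA6 and ITGA7 bind laminins, and ITGA5, ITGA8, ITGAV and ITGA2B bind RGD peptides in fibronectin, vitronectin and related proteins. The beta subunit carries most of the link to the cytoskeleton, since talins and kindlins bind beta tails and switch the receptor to its active state. In carcinoma cells ITGA6 with ITGB4 anchors cells to laminin-332, and ITGB1 serves as the common partner of the collagen, laminin and fibronectin receptors.

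The targeted gene followed the labels. RNF20 had 57.8, 58.5 and 58.0 counts per 1000000 gene counts (CPM) with the control hairpin and 14.1, 12.2 and 11.1 CPM with shRNF20, a log2 fold change of -2.22 (SE 0.11). Gene counts totalled 21988826 to 29685306 per library. Mitochondrial genes took 0.934% to 1.38% of gene counts in shControl and 4.91% to 6.22% in shRNF20, and a fit without them kept the call of each of the 31 tested members. The shControl libraries differed more among themselves than the shRNF20 libraries: the biological coefficient of variation over all genes tested was 0.2 against 0.0399. By another measure, the SD of CPM over its mean, 27 of the 31 tested members varied less in shRNF20. The medians of that measure over the members were 11% in shControl and 4.77% in shRNF20. Of the markers of the line, all 8 were tested, with summed levels of 4118 to 4730 CPM in shControl and 3540 to 3559 CPM in shRNF20. Of these, 4 fell (CD44, from 822 CPM to 351 CPM, and VIM, ANXA1 and EGFR) and 4 did not pass. AXL, which had the highest CPM of the list in the counts without strand and with no account of length, averaged 1358 CPM and 1304 CPM and did not pass. Among genes known to be low in the line, ERBB3 had the highest CPM in shControl (46.9 CPM and 29 CPM), KRT5 was at 0 in every library, PGR stood at or below 0.0841 CPM in both group means, and ESR1 at 0.0997 CPM and 1.44 CPM. Of the 8 genes of this list, 5 were tested. ERBB3 and CDH1 (from 18.2 CPM to 6.99 CPM) fell. ESR1 and EPCAM (from 13.5 CPM to 21.1 CPM) rose, and GATA3 (9.98 CPM and 10.4 CPM) did not pass. Over all genes tested, 29.8% fell and 28.7% rose.

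Promoter sequences of 3 members that fell are shown first, since ITGA1 and ITGA2 are neighbours on chromosome 5 and fell together, and TLN2 was the talin with the larger fall. These 3 were picked after their values were seen. Each is the stretch upstream of the annotated start that holds no exon, from RefSeq (GRCh38.p14), 5′ to 3′ on the gene's strand, with motif matches in capitals (CANNTG, the E-box, in ITGA1 and GGGCGG, the GC box, in ITGA2; none of the 5 motifs searched matched in TLN2). ITGA1 is at chr5:52787666-52787895, ITGA2 at chr5:52989102-52989325 and TLN2 at chr15:62390300-62390525, all on the plus strand.
ITGA1: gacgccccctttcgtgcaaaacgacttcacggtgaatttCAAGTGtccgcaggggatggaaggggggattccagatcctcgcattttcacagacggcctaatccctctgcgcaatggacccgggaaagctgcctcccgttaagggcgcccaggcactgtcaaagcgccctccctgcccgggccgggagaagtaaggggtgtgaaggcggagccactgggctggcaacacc
ITGA2: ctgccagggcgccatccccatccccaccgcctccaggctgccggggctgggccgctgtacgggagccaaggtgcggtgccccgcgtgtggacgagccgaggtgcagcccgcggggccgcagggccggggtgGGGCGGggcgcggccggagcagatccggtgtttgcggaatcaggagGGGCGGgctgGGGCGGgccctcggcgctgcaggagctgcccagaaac
TLN2: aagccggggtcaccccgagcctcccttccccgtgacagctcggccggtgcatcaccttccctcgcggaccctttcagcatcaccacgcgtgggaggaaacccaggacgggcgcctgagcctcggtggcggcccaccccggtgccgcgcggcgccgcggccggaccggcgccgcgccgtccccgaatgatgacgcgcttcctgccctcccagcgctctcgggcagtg
In the RefSeq promoter set, 29 of the 41 members had windows (49 in all, from 250 bases before to 50 after a start), and both strands were searched. The GC box GGGCGG was in 55.1% of the members' windows and in 45% of all 35116 windows of the same length. The E-box CANNTG was in 57.1% and 68.7%, the CCAAT box CCAAT in 16.3% and 34.6%, the AP-1 letters TGANTCA in 6.12% and 7.71%, and the TEAD letters GGAATG in 14.3% and 14%. Of the 19 windows of the 11 matched members that fell, 11 held a GC box, 9 an E-box, 3 a CCAAT box, 1 the AP-1 letters and 0 the TEAD letters. TGANTCA and CANNTG are each their own reverse complement, and no motif contains another. A match describes letters only.

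Most of the tested members changed, and mostly downward. In shRNF20, 17 of the 31 fell, 4 rose and 10 did not pass (edgeR quasi-likelihood test, adjusted p under 0.05). Thus 67.7% of the members were called, where 58.4% of all genes tested were. The share that fell was 54.8%, beside 29.8% of all genes, and the share that rose was 12.9%, beside 28.7%. Of the 31 members, 10 fell at least 2-fold, a size of fall that 11.7% of all genes tested reached. The groups did not overlap in CPM for 22 of the 31 members and for 66.3% of all genes, so non-overlap by itself was about as frequent here as elsewhere. The median log2 fold change was -0.70 over the members and -0.01 over all genes. In bulk RNA, fewer cells expressing a gene and less RNA per cell cannot be told apart.

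**Figure D1:**
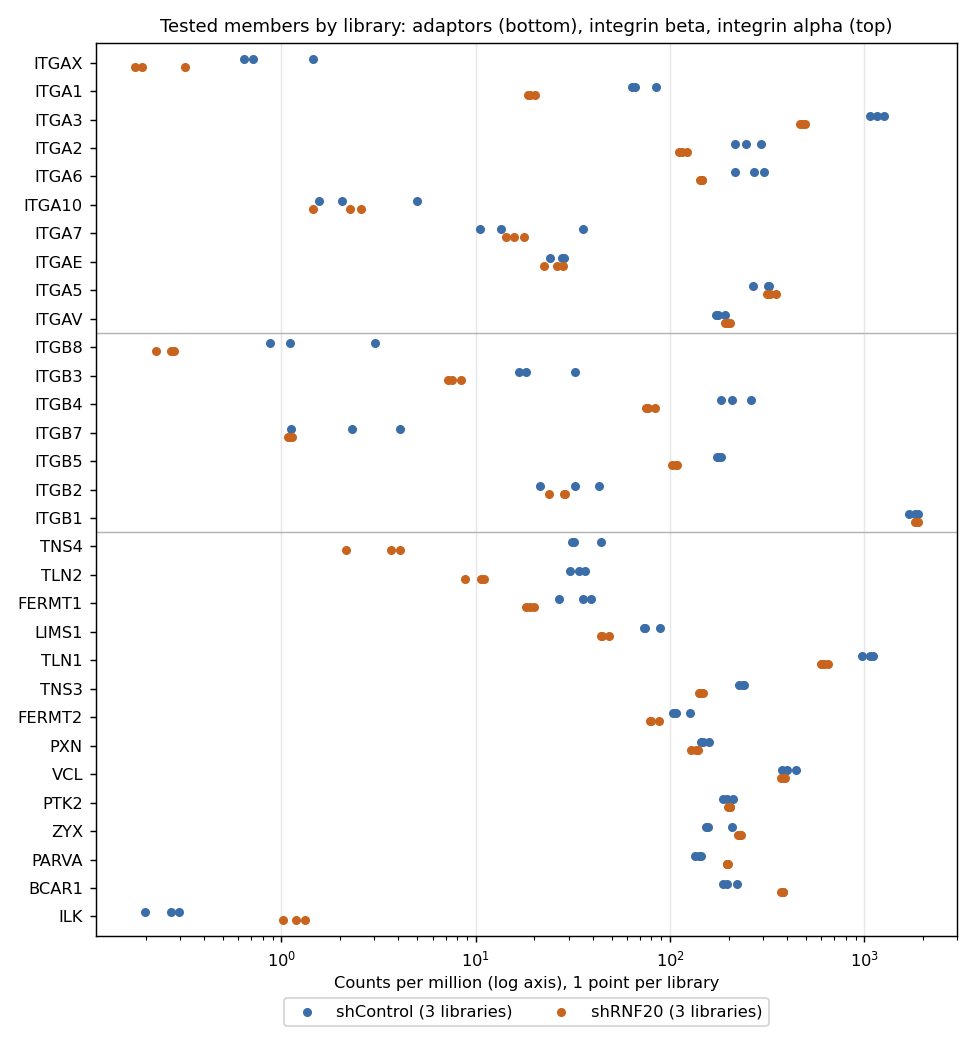
Level of each tested member in every library, in CPM on a log axis, with 1 point per library (blue, shControl; orange, shRNF20) and integrin alpha genes at the top, beta genes in the middle and adaptors at the bottom. ITGB1 stands to the right with overlapping groups, and the points of TNS4, ITGA1, TLN2 and ITGA3 are separated.

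Of the 17 integrin genes tested, 10 fell, 7 did not pass and 0 rose, and the median log2 fold change was -0.86. The share called, 58.8%, was close to the 58.4% of all genes, of which 29.8% fell and 28.7% rose. The count of risen integrin genes was also 0 with DESeq2 or at an unadjusted edgeR p under 0.05, but without shControl replicate 2 ITGA7 was called as risen.

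Among the collagen receptors, ITGA1 fell most. ITGA1, the alpha subunit of the receptor that prefers collagen IV, measured 63.3, 84.5 and 66.3 CPM in the shControl libraries and 20.1, 18.6 and 19.1 CPM in the shRNF20 libraries. Every shRNF20 library lay far below every shControl library, with a log2 fold change of -1.89 (SE 0.12, adjusted p = 1.33e-05 with edgeR). ITGA2, the subunit of the main receptor for fibrillar collagen on epithelial cells and platelets, went from 216, 247 and 293 CPM to 112, 115 and 122 CPM. Its groups were also apart, with a log2 fold change of -1.12 (SE 0.11, edgeR adjusted p = 7.71e-05). The end of ITGA1 and the start of ITGA2 lie 30.1 kb apart on the plus strand of chromosome 5 (chr5:52787896-52959210 and chr5:52989326-53094779, hg38, GENCODE 29). ITGA10, a collagen receptor subunit typical of cartilage, was low (means of 2.86 CPM and 2.09 CPM) and did not pass. ITGA11 had too few reads to be tested.

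The laminin receptors ITGA3 and ITGA6 fell. ITGA3 had the highest level per length of the alpha genes in both groups, and stood at 1261, 1164 and 1072 CPM in shControl and 469, 493 and 481 CPM in shRNF20. The log2 fold change was -1.28 (SE 0.08, edgeR adjusted p = 1.13e-05), and no shRNF20 library came near the shControl range. ITGA6, which pairs with ITGB1 or ITGB4, stood at 303, 216 and 271 CPM and then at 146, 143 and 146 CPM, a log2 fold change of -0.86 (SE 0.12). The highest shRNF20 library of ITGA6 was below the lowest shControl library. ITGA7, the laminin receptor subunit of muscle, was at 10.5, 35.6 and 13.5 CPM in shControl and 17.8, 14.4 and 15.8 CPM in shRNF20. Its shControl replicate 2 was above all others, and ITGA7 did not pass (log2 fold change -0.31, SE 0.40). Without that library its direction turned, to a log2 fold change of 0.39 (edgeR adjusted p = 0.0496).

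The RGD-binding alpha subunits did not pass. ITGA5, the alpha subunit of the classical fibronectin receptor, was at 266, 318 and 321 CPM in shControl and 315, 328 and 352 CPM in shRNF20, and the groups overlapped. Its log2 fold change was 0.13 (SE 0.09, edgeR adjusted p = 0.229). ITGAV, which pairs with ITGB1, ITGB3, ITGB5, ITGB6 and ITGB8, was at 191, 172 and 177 CPM and at 198, 191 and 203 CPM. The groups of ITGAV were just separate, and the log2 fold change of 0.14 (SE 0.07, edgeR adjusted p = 0.123) missed the threshold. ITGA8 and ITGA2B, and the related ITGA4 and ITGA9, were too low to be tested.

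Of the 7 beta subunits tested, 5 fell (71.4%, where 29.8% of all genes fell) and 2 did not pass. ITGB1 was the most abundant member per length. It stood at 1688, 1892 and 1814 CPM in shControl and 1871, 1817 and 1884 CPM in shRNF20, with overlapping groups and a log2 fold change of 0.05 (SE 0.07, edgeR adjusted p = 0.588). ITGB4, whose long tail ties the laminin receptor to keratin filaments at hemidesmosomes, went from 208, 260 and 183 CPM to 75.2, 83.2 and 76.5 CPM. All shRNF20 values of ITGB4 were below all shControl values, and its log2 fold change was -1.47 (SE 0.13, edgeR adjusted p = 3.9e-05). ITGB5, a vitronectin receptor subunit, went from 182, 178 and 174 CPM to 108, 108 and 102 CPM. Its spread within groups was small against the difference, a log2 fold change of -0.75 (SE 0.07).

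ITGB3, which forms the RGD receptor of platelets and endothelium with ITGA2B or ITGAV, stood at 18.1, 32.4 and 16.8 CPM in shControl and 7.23, 7.58 and 8.36 CPM in shRNF20. The groups did not overlap and ITGB3 fell, with a log2 fold change of -1.54 (SE 0.25, edgeR adjusted p = 0.000901). Exons of another gene overlap 51.6% of the exon length of ITGB3, and the strand columns summed to about as many reads. ITGB8, a subunit of a receptor for latent TGF-beta, was low at 3.01, 0.868 and 1.11 CPM and lower still at 0.269, 0.227 and 0.281 CPM. ITGB8 fell (log2 fold change -2.67, SE 0.56), with shControl replicate 1 well above its fellows, and without that library the log2 fold change was -1.92. ITGB6, the epithelial partner of ITGAV, was too low to be tested.

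Of the 4 leukocyte integrin genes tested, 2 fell at low levels and 2 did not pass, where 29.8% of all genes fell. ITGAX, an alpha subunit of myeloid cells, was at 0.711, 1.46 and 0.639 CPM in shControl and 0.192, 0.318 and 0.176 CPM in shRNF20. ITGAX fell without overlap (log2 fold change -2.04, SE 0.48, edgeR adjusted p = 0.00616), on 5 to 37 reads per library. ITGB2, the common beta subunit of leukocytes, was at 21.3, 43.2 and 32.4 CPM and at 28.3, 28.7 and 23.9 CPM, with overlap and a log2 fold change of -0.26 (SE 0.22). Without shControl replicate 1 ITGB2 passed, at -0.51. ITGB7, the partner of ITGA4 and ITGAE on lymphocytes, was at 1.12, 4.07 and 2.30 CPM and at 1.08, 1.14 and 1.09 CPM. Exons of another gene overlap 42.1% of its exon length, and the sum of the strand columns averaged 5.52 CPM and 3.01 CPM. ITGB7 was called as fallen at an edgeR adjusted p of 0.0461 although its groups overlapped, and the call was lost without shControl replicate 2 (log2 fold change -0.64) and without each other library except shControl replicate 1. ITGAE, the alpha subunit of intraepithelial lymphocytes, had means of 26.8 CPM and 25.6 CPM and did not pass, and ITGAL and ITGAM were too low to be tested.

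Beside these, the 18 leukocyte and platelet markers summed to 14.9 to 17.0 CPM in shControl and 9.70 to 11.3 CPM in shRNF20. Of these, 7 were tested, 3 of which fell and 1 rose. MS4A1, TYROBP, PF4 and GP9 were at 0 in all 6 libraries, and PTPRC, the common leukocyte antigen, averaged 0.655 CPM and 0.316 CPM. The highest CPM, with no account of length, was that of LCP1 in shControl (3.99 CPM, then 0.385 CPM) and of GP1BA in shRNF20 (2.30 CPM in shControl, 3.79 CPM in shRNF20). The 15 markers of fibroblasts and endothelium summed to 31.4 to 42.8 CPM and 65.6 to 69.5 CPM. Of 8 tested, 4 rose (COL1A1, COL3A1, LUM and PDGFRB) and 2 fell (PECAM1, from 5.12 CPM to 0.659 CPM, and ACTA2). Over all genes tested, 28.7% rose and 29.8% fell. The part of either list in the integrin values was not tested.

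**Figure D2:**
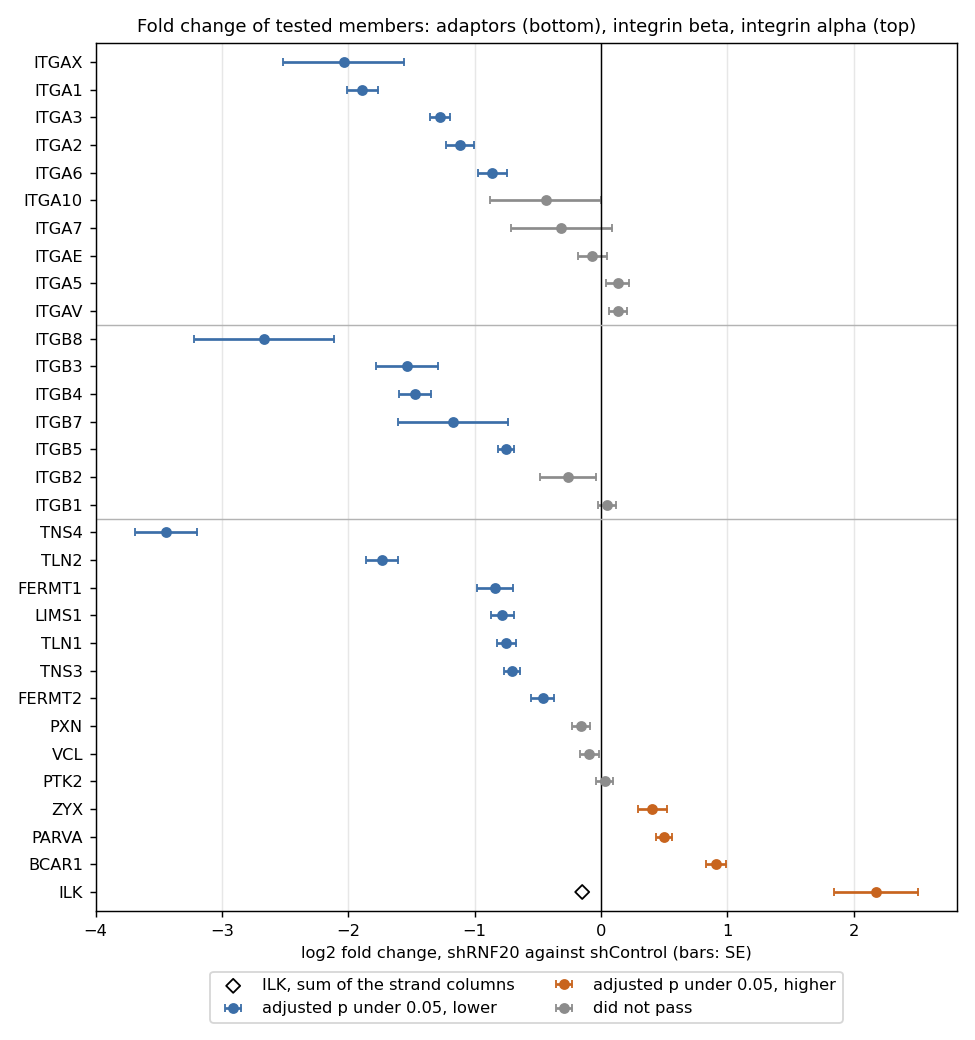
Log2 fold change (shRNF20 against shControl) of each tested member, with bars for the standard error and colour for the call (blue, fell; orange, rose; grey, did not pass). No integrin is orange, and the open diamond gives ILK from the sum of the strand columns, at -0.15 instead of 2.18.

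The 2 talins and 2 kindlins among the members, which bind beta tails in activation, each fell (4 of 4 tested, where 29.8% of all genes fell). FERMT3, a further kindlin that is not a member, did not pass. It averaged 2.89 CPM and 3.23 CPM (log2 fold change 0.16, edgeR adjusted p = 0.546). TLN1, the talin of most cells, which binds beta tails and carries force to actin, stood at 1062, 974 and 1107 CPM in shControl and 600, 619 and 651 CPM in shRNF20, and fell by 0.75 on the log2 scale (SE 0.08, edgeR adjusted p = 7.99e-05). TLN2, the talin best known from muscle and brain, was at 36.5, 33.8 and 30.5 CPM and then at 8.77, 10.6 and 11 CPM (log2 fold change -1.73, SE 0.13). Both talins had separate groups. FERMT1, the kindlin of epithelia, went from 35.8, 26.9 and 39.3 CPM to 18.1, 19.0 and 19.9 CPM, a log2 fold change of -0.84 (SE 0.14). FERMT2, the more widely expressed kindlin, fell less, from a mean of 113 ± 12.4 CPM to 82.1 ± 4.50 CPM (SD, n = 3), a log2 fold change of -0.46.

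Members of the complex of ILK, PINCH and parvin, which bridges beta tails to actin, moved in different directions. LIMS1, which encodes PINCH1, went from 74.5, 73.3 and 88.2 CPM to 48.8, 44.0 and 44.7 CPM and fell (log2 fold change -0.78, SE 0.09, edgeR adjusted p = 0.000203). PARVA, the actin-binding alpha-parvin, rose from a mean of 140 ± 4.74 CPM to 198 ± 1.97 CPM (SD, n = 3), a log2 fold change of 0.50 (SE 0.06). PARVB was too low to be tested.

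ILK, the pseudokinase at the centre of that complex, was called as risen on counts that hold little of its RNA. It stood at 0.271, 0.197 and 0.298 CPM in shControl (8, 5 and 7 reads) and 1.19, 1.32 and 1.02 CPM in shRNF20 (31, 29 and 29 reads), a log2 fold change of 2.18 (SE 0.33). Other genes, TAF10 among them, overlap 78.5% of the exon length of ILK (chr11:6603708-6610874, hg38, GENCODE 29), and a read that lies over exons shared by several genes is counted for none of them. The sum of the columns counted by strand was far larger: 148 ± 7.09 CPM in shControl and 134 ± 2.13 CPM in shRNF20 (SD, n = 3). On that sum the log2 fold change was -0.15 (edgeR adjusted p = 0.0881), so the direction turned and the call ended. Reads of ILK and of its overlapping neighbours on the other strand cannot be told apart in libraries that do not keep strand. TAF10 itself had a log2 fold change of 0.71 in the counts without strand. In the sum of the strand columns, which was 8.76 times as large, it was 0.08 (edgeR adjusted p = 0.396).

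The tensins, which link beta tails to actin, fell. TNS4, a short tensin without the actin-binding part, had the largest fall of the 31 tested members, from 44.1, 32.0 and 31.1 CPM to 4.08, 3.68 and 2.14 CPM. Its log2 fold change was -3.45 (SE 0.25, edgeR adjusted p = 1.92e-05), and the shRNF20 libraries lay wholly below the others. TNS3 went from 225, 236 and 240 CPM to 142, 147 and 142 CPM, also without overlap (log2 fold change -0.70, SE 0.06). TNS1 was too low to be tested.

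Of the 5 scaffold and signalling adaptors tested, 2 rose and 3 did not pass, where 28.7% of all genes rose. BCAR1, which encodes p130Cas, the stretch-sensitive substrate of FAK and SRC, was at 187, 221 and 195 CPM in shControl and 373, 381 and 379 CPM in shRNF20. BCAR1 rose without overlap, with a log2 fold change of 0.91 (SE 0.08, edgeR adjusted p = 3.95e-05). ZYX, which encodes zyxin, a LIM protein recruited to adhesions under tension, rose from 172 ± 31.1 CPM to 229 ± 4.21 CPM (SD, n = 3), by 0.41 on the log2 scale (SE 0.12, edgeR adjusted p = 0.0159). Its call was lost without shControl replicate 3, shRNF20 replicate 2 or shRNF20 replicate 3.

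PTK2, which encodes the focal adhesion kinase FAK, averaged 198 CPM and 201 CPM, with overlap and a log2 fold change of 0.03 (SE 0.07). VCL, which encodes vinculin, the clutch between talin and actin, averaged 407 CPM and 382 CPM, also with overlap (log2 fold change -0.09, SE 0.08). PXN, which encodes paxillin, a docking protein for FAK and vinculin, averaged 150 CPM and 134 CPM without overlap and did not pass (log2 fold change -0.16, SE 0.07, edgeR adjusted p = 0.0779). PXN passed without shControl replicate 1 (-0.21) or shControl replicate 2 (-0.20). Its counts by strand were 3.52 times as large as those without strand, and whether the further reads are of PXN or of overlapping genes cannot be told apart.

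Levels can be compared between genes only per length. In CPM per kilobase of annotated exon, ITGB1 led the members in both groups, at 299 ± 17.1 in shControl and 309 ± 5.88 in shRNF20 (SD, n = 3). In shControl it was followed by ITGA3 (119 ± 9.65) and TLN1 (104 ± 6.70), whose mean ± SD ranges overlapped, and then by ZYX (49.4 ± 8.94). In shRNF20 the order after ITGB1 was ZYX (65.6 ± 1.21), TLN1 (61.9 ± 2.57) and ITGA3 (49.1 ± 1.27). There the mean ± SD ranges of ZYX and TLN1 overlapped slightly. These orders are of the counts without strand. With the sum of the strand columns PXN stood above ZYX in shControl (60.0 and 53.8 CPM per kilobase) and above TLN1 and ITGA3 in shRNF20 (55.6, 53.8 and 42.7 CPM per kilobase). In the counts without strand BCAR1 moved from rank 11 of the 41 to rank 6, ITGB4 from rank 8 to rank 16, and TNS4 from rank 19 to rank 25. The summed level of the 31 tested members was 7312, 7417 and 7416 CPM in shControl and 5805, 5841 and 5940 CPM in shRNF20, 20.6% lower. That sum did not overlap between groups, and the two-sided exact permutation test gave p = 0.1, its minimum for 3 samples against 3.

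**Figure D3:**
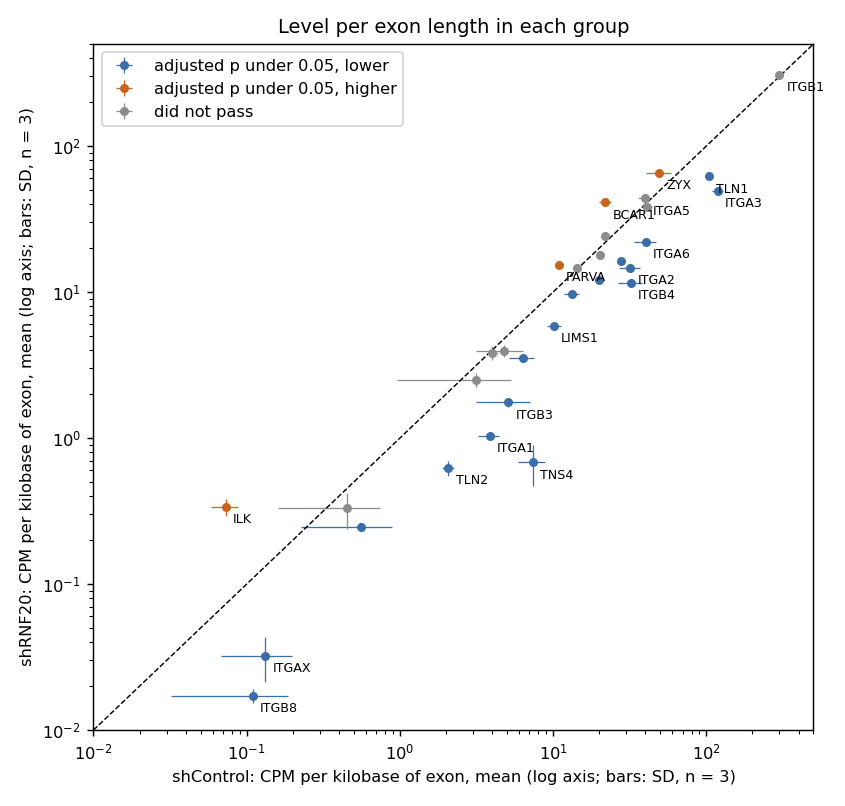
Mean level of each tested member per kilobase of exon in shControl (x axis) and shRNF20 (y axis), both in CPM per kilobase on log axes, with bars for the SD over 3 libraries and a dashed line of equal level. ITGB1 lies on the line at the top, and ITGA3, TLN1 and TNS4 lie below it.

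Counts of partners were also set against each other within each library, which no scaling of libraries alters. Of the alpha subunits that fell, ITGA2, ITGA3 and ITGA6 were set against ITGB1. ITGA1, which also fell, was not among the pairs listed, and neither were the tested ITGA7, ITGA10, ITGAE and ITGAX. The log2 count ratio of ITGA3 to ITGB1 was -0.42, -0.70 and -0.76 in shControl and -2.00, -1.88 and -1.97 in shRNF20, a difference of -1.32. The difference was -1.15 for ITGA2 to ITGB1 and -0.90 for ITGA6 to ITGB1, both without overlap. For ITGAV and ITGA5 to ITGB1 it was 0.09 in each case, with overlapping groups (exact permutation p = 0.4 and p = 0.2).

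Against the beta subunits that fell, the ratios went up. The log2 count ratio of ITGAV to ITGB5 was 0.06, -0.05 and 0.02 in shControl and 0.87 (replicate 1), 0.83 (replicate 2) and 0.998 (replicate 3) in shRNF20, a difference of 0.89. The difference was 1.61 for ITGAV to ITGB3, whose exons overlap another gene, and 2.60 for ITGAV to ITGB8, the second from few ITGB8 reads. For ITGA6 to ITGB4, both of which fell, it was 0.61. That log2 ratio was 0.54, -0.26 and 0.57 in shControl, with replicate 2 well below its fellows. In shRNF20 it was 0.96, 0.78 and 0.93. In all, 7 of the 9 pairs had separate groups. Each of these had an exact two-sided permutation p of 0.1, the smallest the design allows, and 0.129 after adjustment over the 9 pairs. Of all single genes tested, 66.3% had groups that did not overlap in CPM, and ratios of other gene pairs were not computed. Each difference follows from the changes of its 2 genes given above. The 9 pairs share genes and are not independent.

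**Figure D4:**
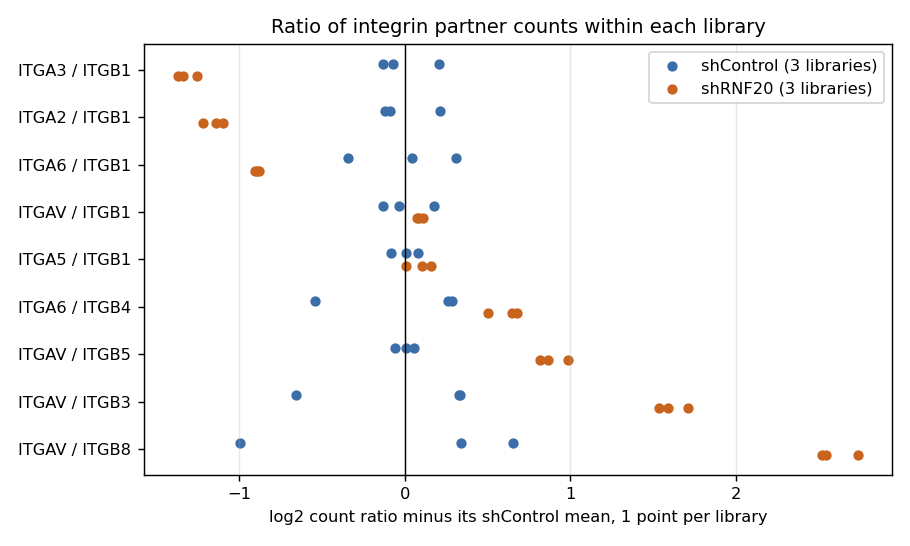
Log2 ratio of the counts of 9 integrin partners in each library, minus the shControl mean of that pair, with 1 point per library (blue, shControl; orange, shRNF20). ITGA3, ITGA2 and ITGA6 sit low against ITGB1 in shRNF20, ITGAV and ITGA5 overlap, and the pairs with ITGB4, ITGB5, ITGB3 and ITGB8 sit high.

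The 31 tested members lay on 16 chromosomes. The median gene span was 78.9 kb for the 17 members that fell, 24.9 kb for the 4 that rose and 71 kb for the 10 that did not pass, and spans ranged from 16 to 454 kb among those that fell.

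The ligands that integrins bind were counted from a separate list of matrix and cell-surface genes. Of 40 tested, 19 fell (47.5%, beside 29.8% of all genes) and 6 rose (15%, beside 28.7%). The median log2 fold change was -0.62. LAMA3 and LAMB3, which encode laminin chains of epithelial basement membrane, fell: LAMA3 by 1.06 on the log2 scale and LAMB3 from 372 CPM to 60.4 CPM (-2.62). FN1, which encodes fibronectin, fell from 874 CPM to 212 CPM (-2.04). FN1 was named after its values were seen. ADAM15, a surface protein with an RGD motif, fell by 1.04 on the log2 scale. CCN1 and CCN2, matricellular ligands of ITGAV and ITGA6 receptors, rose (1.29 and 0.92), as did COL1A1 (1.19), a chain of collagen I that stood at 13.2 CPM and 30.2 CPM. EDIL3, COL4A1 and COL3A1 were the other ligand genes that rose.

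Regulators of integrin activation, trafficking and turnover were closer to balance. Of 40 tested, 12 rose (30%, beside 28.7% of all genes) and 9 fell (22.5%, beside 29.8%), with a median log2 fold change of 0.06. These shares were near those of all genes. SLC3A2, the heavy chain of CD98, which binds beta tails, rose by 1.26, RAP1A, the small GTPase upstream of talin recruitment, by 0.78, and PPFIA1, a liprin at adhesion edges, by 0.62 on the log2 scale. CD82, a tetraspanin that associates with integrins, fell by 1.41, CLTC, the clathrin heavy chain of endocytosis, by 0.67, and SNX27, a sorting nexin of endosomal recycling, by 0.63 on the log2 scale.

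Among other scaffold and actin-linking proteins 24 of 40 tested fell (60%, beside 29.8% of all genes) and 6 rose (15%, beside 28.7%). The median log2 fold change was -0.45. LPXN, which encodes the paxillin relative leupaxin, fell by 2.03, SORBS2, an actin and vinculin adaptor, by 1.48, and TLNRD1, a relative of the talin rod, by 0.81 on the log2 scale. CNN2 (0.79), CTTN (0.48) and NEXN (0.84), which encode the actin binders calponin 2, cortactin and nexilin, rose. With the shRNF20 libraries summed to 1 sample, CTTN and NEXN were no longer called.

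Of 57 tested kinases, phosphatases, adaptors and GTPase regulators of adhesions, 24 fell (42.1%, beside 29.8% of all genes) and 13 rose (22.8%, beside 28.7%). The median log2 fold change was -0.22. CRK, the adaptor that binds p130Cas, rose by 0.96, and PTPN1, a phosphatase that acts on adhesion proteins, by 0.88 on the log2 scale. CDC42, the GTPase of filopodia, was called as risen by 2.23, but from only 1.09 CPM to 5.15 CPM. The sum of the strand columns was as low (0.941 CPM and 4.51 CPM). RHOA and RAC1 of the same list averaged 315 CPM and 426 CPM in shControl. Whether reads of CDC42 were lost to overlapping genes was not tested. STARD8, a RhoGAP at adhesions, fell by 1.40, DOCK5, a Rac exchange factor, by 1.09, and SOS1, a Ras exchange factor, by 0.95 on the log2 scale. The shares called in the 4 lists, 62.5%, 52.5%, 75% and 64.9% in the order given, stood beside the 58.4% of all genes, and none of the lists was tested against other genes.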

How the data were processed

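The authors deposited, for each of the 6 libraries, raw counts of reads for every gene, once without strand and once for either strand. FastQC 0.12.1, the aligner STAR 2.7.11a and the build hg38 are named in the submitters' processing notes. The annotation release is not given in the sources used here. RNA came from a silica column kit and libraries from a commercial provider, per the labels' protocols. Counts without strand were used, since either strand column held close to equal reads (50.1% to 50.2% in 1 of the 2 strand columns). A read that lies over exons of several genes is counted for none of them there, so overlapping genes are underestimated. Lines naming no gene held 20.9% to 24.1% of reads and were left out.

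Counts were tested with R 4.3.3 and edgeR 4.0.16: filterByExpr (minimum count 10), TMM, robust quasi-likelihood F-test of shRNF20 against shControl, Benjamini-Hochberg adjustment over 15797 genes, threshold 0.05. The fits were tested on simulated data. CPM values use TMM library sizes. Permutation tests used SciPy 1.17.1. Positions and exon lengths came from GENCODE 29, which lists 58264 of the genes counted and is not known to be the authors' release. Replicates of a group differed by more than sampling noise (chi-square per degree of freedom from 2.06 to 51.5).

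The members and gene lists were chosen with earlier results of these data known. Library values are given for members that passed with a log2 fold change of at least 0.58 in size, for every tested beta subunit and for ITGAV, ITGA2, ITGA3, ITGA5 and ITGA6, and also for ITGA7, chosen after its values were seen. Pathway genes are the 3 with the smallest p in each direction. Alternatives were DESeq2 1.42.0, limma-voom (limma 3.58.1), upper quartile or RLE scaling, no filter, a CPM filter (at least 1 in 3 libraries), a replicate block, the strand columns summed, a test against 1.2-fold, no mitochondrial genes, the shRNF20 libraries summed to 1 sample, and each library left out in turn. The values of some list genes are not reported here.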

Additional observations from a re-analysis of the deposited data

How the results depend on the processing

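Of the 21 members called, 14 kept their call and direction in all 17 alternatives: LIMS1, TLN1, TLN2, TNS3, TNS4, ITGA1, ITGA2, ITGA3, ITGA6, ITGB3, ITGB4 and ITGB5 fell, and PARVA and BCAR1 rose. None of these alternatives adds reads that ITGB3 may have lost to its overlapping gene. ILK turned to -0.15 with the sum of the strand columns. With the shRNF20 libraries summed to 1 sample, assumed to vary like shControl, FERMT1, FERMT2, ITGAX, ITGB7, ITGB8 and ZYX lost their calls, and 19.3% of genes were called. There matrix ligands that fell numbered 9, activation regulators 4 up and 3 down, scaffold genes 1 up and 9 down, and signalling genes 4 up and 11 down. In the test against 1.2-fold 7 signalling genes rose, and ITGB7 and ZYX lost their calls. ITGB7 also lost its call with limma-voom and upper quartile scaling. ITGAX and ITGB8 could not be tested under the CPM filter, and with no filter ITGB2 passed at -0.30. With single libraries left out, members that fell numbered 16 to 19 and those that rose 3 to 5, signalling genes that rose 8 (without shRNF20 replicate 3) to 13, and the log2 fold change of ITGA7 ran from -0.64 to 0.39. The summed level of the members was 18.7% lower with upper quartile scaling and 18.1% lower with the sum of the strand columns. With a replicate block 17 members fell and 4 rose, as without it. Deviations of same-numbered libraries from their group means had correlations of -0.016, 0.035 and 0.028. The shRNF20 libraries varied too little for these correlations to decide whether the numbers pair the samples. The cause of these changes was not tested. Members under about 1 CPM rest on few reads, so their folds are the least precise, and 10 members could not be tested at this depth.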
